A study of Rattus norvegicus with 6 samples.

Results

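SR proteins and heterogeneous nuclear ribonucleoproteins (hnRNPs) were followed in purified rat beta cells after knockdown of Nova1. The members were the genes whose name in the deposited assembly begins with Srsf or Hnrnp, together with Tra2a, Tra2b and Syncrip. These are 30 genes, held as 33 gene models (a gene name at a locus) and 120 transcripts, of 24579 gene models and 60887 transcripts in all. The SR group has 13 genes with 13 models and 58 transcripts, and the hnRNP group has 17 genes with 20 models and 62 transcripts. Beta cells, which secrete insulin in the pancreatic islet, were sorted from rat pancreas by flow cytometry in 3 batches, and each batch gave 1 library with an siRNA against Nova1 and 1 library with a negative control siRNA. Both siRNAs were used at 30 nM, with 16 h of transfection and 48 h of recovery, per the labels' protocols. Strain, age and the number of animals were not stated. Separate animals for each batch were not stated either. In fits with batch as a block, p-values rest on how the difference between knockdown and control varied over the 3 batches. The distance of the batches from each other is not part of that. The series title concerns Nova1, an RNA-binding protein known from neurons, as a regulator of splicing in beta cells.

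SR proteins carry an RNA recognition motif and a tail rich in arginine and serine. They bind exonic enhancers and recruit the splicing machinery, and their kinases and a dedicated importin control their phosphorylation and entry into the nucleus. hnRNPs coat nascent transcripts and often silence exons, and many of them also act in transport, translation and decay of mRNA. In human and mouse cells, genes of both families carry alternative exons or introns whose inclusion brings in an early stop codon, and the proteins use these to limit their own level.

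Sums over transcripts are given as RPKM (reads divided by transcript length and by library size), which allows levels of different genes to be set side by side. Others are given as CPM, with reads scaled to library size and by the scaling factors of the fit, but not to length. Knockdown libraries held 95394043 to 146453308 assigned reads and control libraries 122637234 to 292432076, with the control deeper in every batch. The targeted gene, Nova1, had 7.76, 10.2 and 9.43 CPM in knockdown libraries of batches 1, 2 and 3, against 20.6, 21.5 and 17.4 CPM in controls. The groups did not overlap, and the log2 fold change was -1.12 (SE 0.11, limma adjusted p = 0.0378). In RPKM the same gene had 1.38, 2.38 and 1.81 in knockdown and 5.06, 2.83 and 2.03 in control libraries, and these values overlapped. The call was lost in limma without the batch block (adjusted p = 1.00), without batch 1 or batch 2 (0.154 and 0.164) and with limma-trend on log2 RPKM (0.324 to 0.334). Of the beta cell markers, 7 of 8 were at 66.5 RPKM or more in every library, and G6pc2 was at or near 0 throughout, at 0 to 0.0664 RPKM in knockdown and 0 to 0.0149 RPKM in control libraries. Summed markers of stellate cells and fibroblasts were at 16.6 to 22.1 RPKM in knockdown and 6.66 to 14.8 RPKM in control libraries, without overlap. Acinar markers summed to 95.7 to 288 RPKM in knockdown and 131 to 382 RPKM in control libraries, lower in the knockdown of every batch. The 4 alpha cell markers, given in full with batch 2, summed higher in the knockdown of every batch. Immune markers summed to 15.8, 21.7 and 10.7 RPKM in knockdown and 14.1, 13.5 and 11.4 RPKM in control libraries, and 5 of 6 had a log2 fold change above 0. Called marker genes were Ctrb1, an acinar protease (-0.40), Col3a1, a fibrillar collagen (1.26), Lyz2, a lysozyme of macrophages (1.43), C1qa of complement (-0.47) and the neurofilament Nefm (0.33), with limma adjusted p of 0.0463, 0.042, 0.042, 0.0463 and 0.0463. The part of these markers in the results that follow was not tested.

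The hnRNP genes were the more abundant group. Their models summed to 1200, 1300 and 1130 RPKM in the knockdown libraries of batches 1, 2 and 3, against 1160, 1260 and 1070 RPKM in the controls. The SR group summed to 229, 470 and 243 RPKM in knockdown and 246, 426 and 232 RPKM in control libraries. For both groups, knockdown and control of a batch lay closer to each other than batch 2 lay to the other batches of the same group. As a share of assigned reads, SR genes took 0.051%, 0.113% and 0.051% in knockdown and 0.051%, 0.103% and 0.050% in control libraries.

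**Figure D1:**
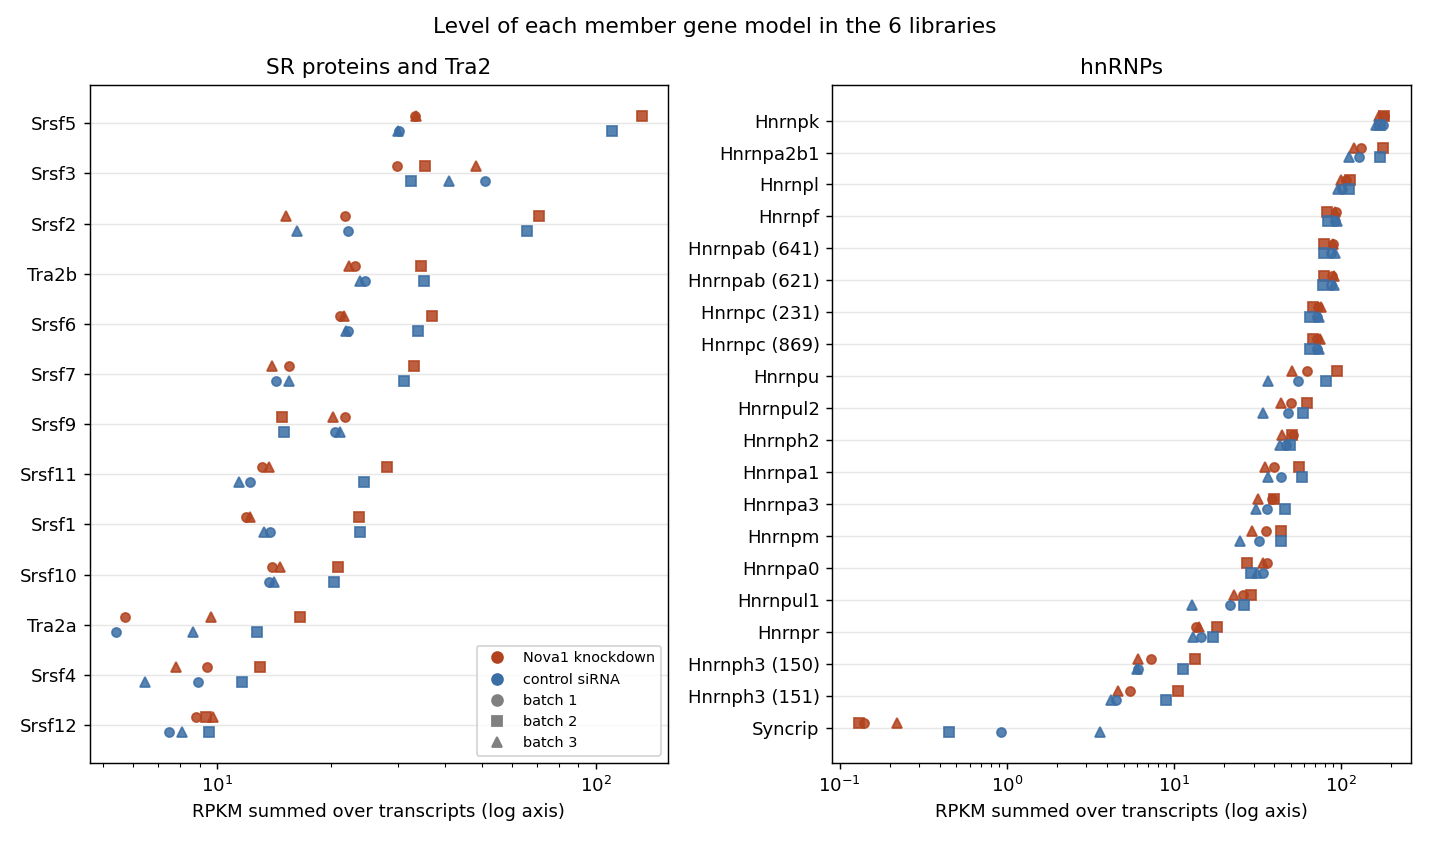
Level of each of the 33 gene models in RPKM on a log axis, with knockdown libraries in red above control libraries in blue and batches 1, 2 and 3 as circles, squares and triangles. Names found at several loci carry the last 3 digits of the locus. Red and blue symbols of a batch lie farthest apart for Syncrip, with smaller gaps such as Srsf3 in batch 1 and Hnrnpul1 in batch 3, and squares lie to the right for many SR genes. The Srsf3 gap is one of RPKM, and its log2 ratio in CPM was -0.11 in batch 1.

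Hnrnpk, a protein that binds C-rich RNA, had the highest level per length of all members. It was at 182, 180 and 169 RPKM in knockdown and 178, 172 and 161 RPKM in control libraries. Hnrnpa2b1, which binds purine-rich RNA and takes part in mRNA transport, was at 132, 178 and 120 RPKM in knockdown libraries and 128, 172 and 112 RPKM in controls, high in both libraries of batch 2. Hnrnpl, which binds CA repeats, and Hnrnpf, which binds runs of G, averaged 107 ± 6.34 and 89.5 ± 5.59 RPKM in knockdown libraries, against 103 ± 8.03 and 90.3 ± 6.13 RPKM in controls (SD, n = 3 each). In each of these 4 genes the groups overlapped, and limma called none of their log2 fold changes of 0.01, 0.02, -0.02 and -0.06 (adjusted p of 0.875, 0.802, 0.849 and 0.458).

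Among SR genes, Srsf5 had the highest mean level and also the widest spread. It was at 33.2, 132 and 33.6 RPKM in knockdown libraries, against 30.3, 110 and 30.1 RPKM in controls, so that the batches and not the groups were apart. Srsf3, the smallest SR protein, was at 29.9, 35.5 and 48.2 RPKM in knockdown and 50.9, 32.4 and 41.1 RPKM in control libraries. In CPM it had 73.3, 100 and 74.7 in knockdown and 79.1, 96.7 and 84.8 in control libraries, without the gap in batch 1. A short Srsf3 transcript of 501 nt held 23.8%, 0 and 60.0% of its RPKM in knockdown and 60.2%, 0 and 44.5% in control libraries. Srsf2, a factor of exonic enhancers also known as SC35, averaged 36.0 ± 30.5 RPKM in knockdown and 34.8 ± 27.2 RPKM in control libraries (SD, n = 3 each), and Tra2b, which binds GAA-rich exonic enhancers, 26.7 ± 6.86 and 27.9 ± 6.35 RPKM in the same groups. In the order of mean levels, all 12 pairs of neighbours in the SR group and 16 of 19 in the hnRNP group overlapped in their ranges over the 6 libraries. The lowest SR gene was Srsf12, at 9.30 ± 0.506 RPKM in knockdown and 8.35 ± 1.04 RPKM in control libraries. Log2 fold changes were 0.12 for Srsf5, -0.08 for Srsf3, -0.04 for Srsf2 and -0.11 for Tra2b, and none passed in limma (adjusted p of 0.191, 0.451, 0.632 and 0.217).

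After Nova1 knockdown nearly all members lay within narrow limits of the control, and Syncrip stood apart. All 33 models passed the filter on low reads, and 1 of 33 was called in limma, lower in the knockdown, where 1.2% of the 15983 genes tested were called lower. None was called higher, where 0.513% of all genes were. At an unadjusted p below 0.05 stood 8 of 33 models, 5 higher and 3 lower, against 23.9% of all genes. The median log2 fold change was 0.00 over the members and 0.00 over all genes, and 16 of 33 members were above 0, against 50.8% of all genes. Without Syncrip, the other 32 models ranged from -0.14 to 0.30 with a median SE of 0.05. For 31 of 33 models the 95% interval of the log2 fold change lay inside a 1.5-fold change in either direction, and Syncrip and Hnrnpul1 reached past it. These intervals were not adjusted for the number of genes, and the share of all genes with such intervals was not counted.

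**Figure D2:**
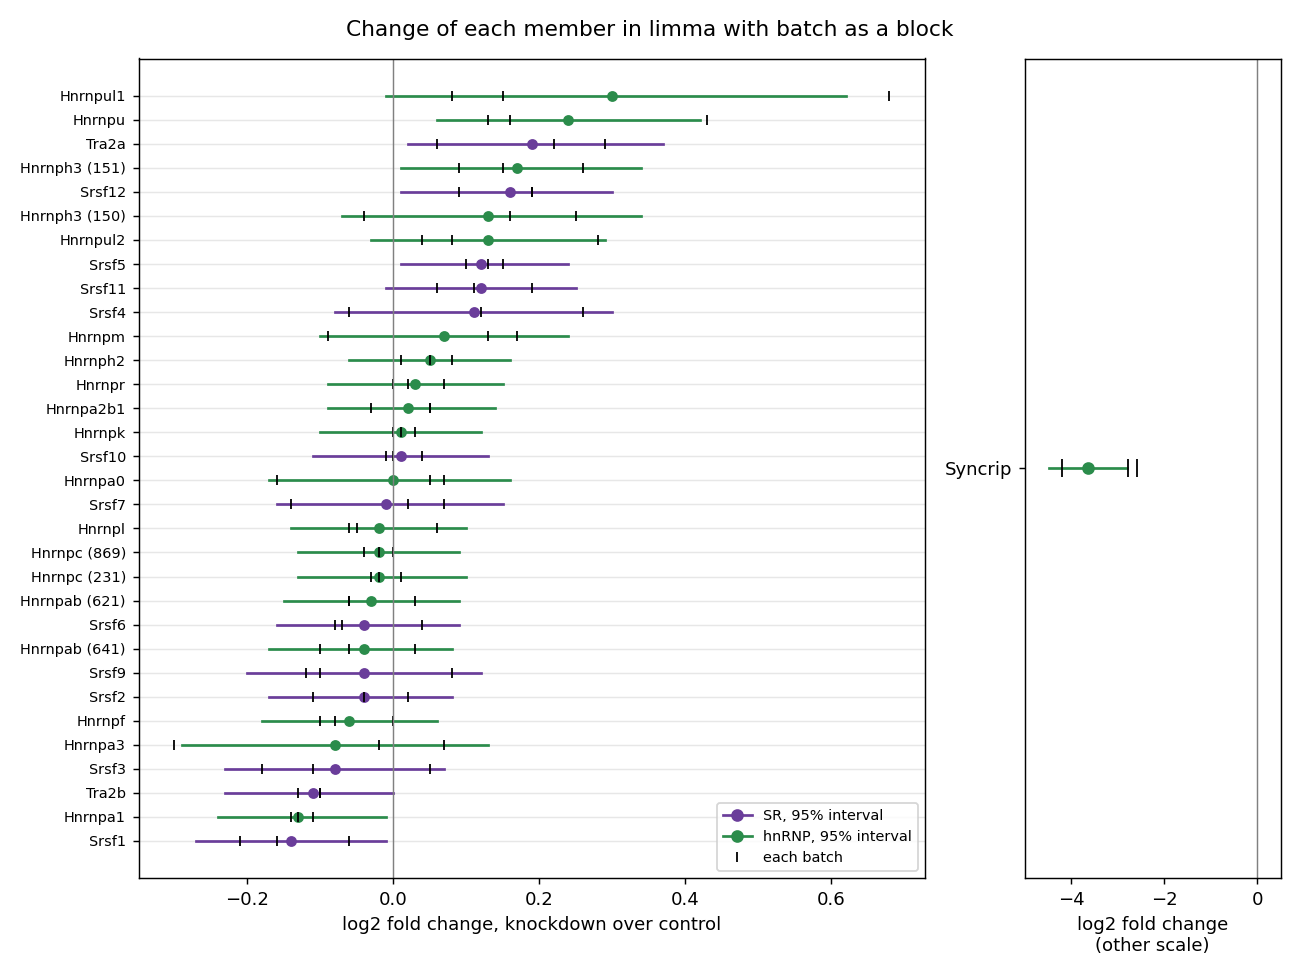
Log2 fold change of each gene model, knockdown over control, with its 95% interval from limma (SR purple, hnRNP green) and black ticks for the ratio in each batch. Syncrip has a panel with its own scale, at -3.64, while the other 32 models lie between -0.14 and 0.30.

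Syncrip, also known as hnRNP Q, acts in mRNA transport, stability and translation, and its locus is chr8:95595843-95699074 on the minus strand of Rnor_5.0. It had 0.923, 0.290 and 1.32 CPM in knockdown libraries of batches 1, 2 and 3, against 6.39, 1.74 and 24.5 CPM in controls. All knockdown values were below all control values, and the controls differed among themselves by far more than the knockdown libraries did. These levels rest on 115, 31 and 188 estimated reads in knockdown and 1764, 227 and 4606 estimated reads in control libraries. The log2 fold change was -3.64 (SE 0.33, limma adjusted p = 0.036), with ratios of -2.79, -2.59 and -4.21 on the log2 scale in the batches. It was the only member with a mean below 1 RPKM in knockdown libraries, at 0.167 ± 0.050 RPKM, against 1.66 ± 1.70 RPKM in controls (SD, n = 3 each).

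The call for Syncrip depended on the fit. The adjusted p in limma was 1.00 without the batch block, 0.123 without batch 1 and 0.164 without batch 2. With limma-trend on log2(RPKM + 1) the log2 fold change was -1.01 and the adjusted p 0.215. Of its 7 transcripts, 3 were listed at 0 in every library. A newly assembled transcript of 6511 nt held 91.0%, 0 and 80.3% of the gene's RPKM in knockdown and 96.7%, 44.4% and 92.5% in control libraries. Hnrnpr, the closest relative of Syncrip, was at 13.6, 18.2 and 14.2 RPKM in knockdown and 14.5, 17.3 and 13.0 RPKM in control libraries, with a log2 fold change of 0.03 (limma adjusted p = 0.716).

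The highest log2 fold changes among the members were those of Hnrnpul1, Hnrnpu and Tra2a, and none passed. Hnrnpul1, a relative of Hnrnpu, was at 25.8, 29.0 and 23.0 RPKM in knockdown and 21.6, 26.5 and 12.9 RPKM in control libraries. The control of batch 3 was low and the remaining values overlapped (log2 fold change 0.30, SE 0.12, limma adjusted p = 0.218). Hnrnpu, a nuclear scaffold protein that binds chromatin and RNA, was at 62.3, 94.4 and 51.1 RPKM in knockdown and 55.2, 81.4 and 36.5 RPKM in control libraries, higher in the knockdown of every batch (0.24, SE 0.07, adjusted p = 0.136 in limma). Tra2a, the paralog of Tra2b, was at 5.70, 16.5 and 9.65 RPKM in knockdown and 5.41, 12.8 and 8.64 RPKM in control libraries (0.19, SE 0.07, adjusted p = 0.182 in limma). Across all 15983 genes, longer transcripts had higher log2 fold changes, with a Spearman rho of 0.33 over genes, which are not independent replicates. That rho was 0.05, 0.39 and 0.38 in batches 1, 2 and 3, and the mean transcript lengths of Hnrnpul1 and Hnrnpu are 4435 and 3344 nt. Corrected for transcript length, their log2 fold changes were 0.24 and 0.20, and that of Tra2a was 0.24. Without batch 3 and without that correction, Hnrnpul1 was at 0.11 on the log2 scale.

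At the other end stood Srsf1 and Hnrnpa1, a pair known for opposing effects on splice site choice. Srsf1 was at 11.95, 23.7 and 12.2 RPKM in knockdown and 13.8, 23.8 and 13.3 RPKM in control libraries, lower in the knockdown of every batch (log2 fold change -0.14, SE 0.05, limma adjusted p = 0.183). Hnrnpa1 was at 40.0, 56.4 and 34.9 RPKM in knockdown and 44.1, 58.1 and 36.6 RPKM in control libraries, likewise lower in every batch (-0.13, SE 0.04, limma adjusted p = 0.178). With the length correction Srsf1 was at -0.21 (limma adjusted p = 0.0714) and Hnrnpa1 at -0.08 (0.354). Both differences were small beside the distance of batch 2 from the other batches. Srsf7, an SR protein with a zinc knuckle, had a log2 fold change of -0.01 (limma adjusted p = 0.957).

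The other members also stayed below the threshold. In the SR group, Srsf6, Srsf9 and Srsf10 had log2 fold changes of -0.04, -0.04 and 0.01, and Srsf4, Srsf11 and Srsf12 had 0.11, 0.12 and 0.16. In the hnRNP group, Hnrnpa0, Hnrnph2, Hnrnpm, Hnrnpa3 and Hnrnpul2 had 0.00, 0.05, 0.07, -0.08 and 0.13. Hnrnpab, Hnrnpc and Hnrnph3 are each listed at 2 loci. The RPKM of both Hnrnpab loci differed by at most 1.65% and that of both Hnrnpc loci by at most 1.04% in a library, so that their levels are uncertain where reads were divided between near-identical copies. Their log2 fold changes were -0.03 and -0.04 for Hnrnpab, -0.02 at both loci for Hnrnpc, and 0.13 and 0.17 for Hnrnph3. The Hnrnpa3 model lies inside the gene Ca10 on chromosome 10, while RefSeq places Hnrnpa3 on another chromosome, and its values are likewise uncertain. With a single locus counted per repeated name, the hnRNP group summed to 1030, 1140 and 960 RPKM in knockdown and 997, 1100 and 901 RPKM in control libraries. Some hnRNP genes stand in the assembly under older symbols that the naming rule does not take. Among these, Hnrpd, a factor of AU-rich element decay, was at 35.8, 39.6 and 31.1 RPKM in knockdown and 35.6, 40.2 and 30.1 RPKM in control libraries (log2 fold change -0.03, limma adjusted p = 0.742).

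Genes that phosphorylate SR proteins or carry them into the nucleus were followed as a list. Of 12 tested, 1 was called, lower in the knockdown, where 1.2% of all genes were, and it was Tnpo3, the importin that takes phosphorylated SR proteins into the nucleus. The list had a median log2 fold change of 0.08, against 0.00 over all genes, and a median transcript length of 3547 nt, against 2277 nt. Tnpo3 had 42.2, 46.4 and 45.2 CPM in knockdown libraries, against 61.9, 60.7 and 60.0 CPM in controls. Values within each group were close, the groups did not overlap, and the log2 fold change was -0.45 (SE 0.06, limma adjusted p = 0.0439). The batch ratios were -0.55, -0.39 and -0.41 on the log2 scale, and the locus is chr4:56587184-56664471 on the minus strand of Rnor_5.0. The adjusted p in limma ranged from 0.0222 with a correction for transcript length to 1.00 without the batch block. It was 0.0694 to 0.198 when a batch was left out 0.0579 with scaling by library totals, 0.0504 with a stricter filter and 0.153 to 0.155 with limma-trend on log2 RPKM, while the log2 fold change stayed between -0.51 and -0.37.

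The kinases on that list did not pass. Srpk1 and Srpk2, which phosphorylate SR proteins in the cytoplasm, had log2 fold changes of 0.10 and 0.17 (limma adjusted p of 0.323 and 0.190). Clk1 and Clk4, nuclear kinases that release SR proteins from speckles, had 0.16 and 0.14 (limma adjusted p of 0.205 and 0.195). Clk1 was high in both libraries of batch 2, at 9.19, 49.2 and 7.45 RPKM in knockdown and 8.70, 39.1 and 6.61 RPKM in control libraries. Tnpo1, the importin of Hnrnpa1, had 0.05 (limma adjusted p = 0.628).

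**Figure D3:**
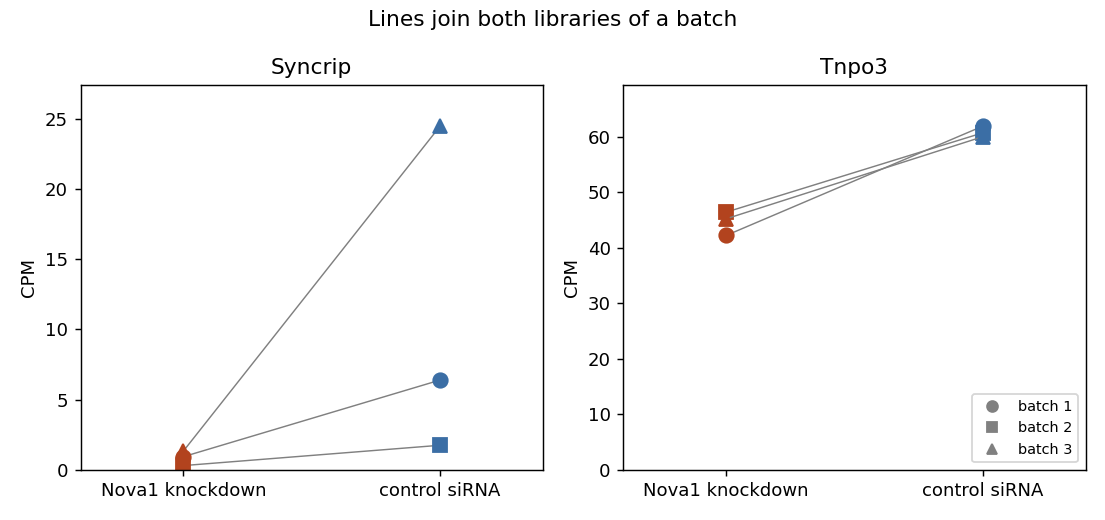
Syncrip and Tnpo3 in CPM, with knockdown libraries left and control libraries right and a line joining both libraries of a batch. The Tnpo3 lines run nearly parallel, and the Syncrip controls spread between 1.74 and 24.5 CPM.

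Related lists gave no call. Their counts stand against 23.9% of all genes at an unadjusted p below 0.05 and 50.8% above 0. Of 23 tested models of other SR-related splicing proteins, 0 passed (6 at an unadjusted p below 0.05) and 19 were above 0, with a median of 0.14. Rbm39 and Rbm25 each count with 2 loci. The smallest p-values were those of Luc7l2, a U1-associated factor, at -0.20 (limma adjusted p = 0.103) and Rbm39 at 0.16 (limma adjusted p = 0.125). Of 18 tested hnRNPs and close relatives under other names, 0 passed (4 at an unadjusted p below 0.05) and 10 were above 0, with a median of 0.06. Pcbp4 was at 0.26 (limma adjusted p = 0.0756) and Matr3, a nuclear matrix protein, at 0.22 (limma adjusted p = 0.0788). Of 15 tested models of nonsense-mediated decay factors, which degrade transcripts with an early stop codon, 0 passed (2 at an unadjusted p below 0.05) and 11 were above 0, with a median of 0.08. Upf3b was at 0.18 (limma adjusted p = 0.178). Median transcript lengths of these lists were 4083, 2051 and 3239 nt in that order, against 2277 nt over all genes. The part of length in these counts was not tested.

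Use of transcripts within the member genes was examined beside their sums. Of the 33 models, 25 have more than 1 transcript, with 112 transcripts, of which 95 passed the filter and were tested. No member transcript passed in limma diffSplice, where 0.302% of 31429 transcripts did. At an unadjusted p below 0.05 stood 14 of 95, against 9.01% of all transcripts, and 8 of 95 had shares that did not overlap between groups, against 9.37%. Transcripts of a gene share their sum and are not independent. Newly assembled splice combinations made up 43 of 58 SR transcripts and 32 of 62 hnRNP transcripts, against 30871 of 60887 transcripts in all. They held 34.5% to 44.4% of SR RPKM in knockdown and 39.2% to 47.2% in control libraries. Of hnRNP RPKM they held 25.5% to 29.0% in knockdown and 25.1% to 29.5% in control libraries, while over all transcripts they held 9.60% to 14.9% and 9.24% to 12.6% in the same groups. The sum over all transcripts includes insulin, with Ins1 alone at 140000 to 310000 RPKM in knockdown and 191000 to 313000 RPKM in control libraries. Its share in new combinations is therefore weighted toward insulin and is no measure of a typical gene. Over all 120 member transcripts, 7 were listed at 0 in every library and 29 more in at least 1 library, and a listed 0 can be a failed estimate where transcripts share most of their sequence.

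The largest shifts were in Srsf10 and Srsf11. Srsf10 encodes an SR protein that represses splicing when dephosphorylated. Its transcript of 2725 nt took 7.07%, 3.74% and 3.42% of the gene's RPKM in knockdown and 32.3%, 34.2% and 30.0% in control libraries. Its partner of 2728 nt took 33.2%, 44.8% and 38.2% in knockdown and 13.0%, 10.8% and 13.9% in control libraries. Neither pair of ranges overlapped, and the values within each group were close, while the adjusted p in limma diffSplice was 0.313 and 0.391. Without batch 2 both passed, at 0.0171 and 0.029 in limma, while the values were 0.506 and 0.596 without batch 1 and 0.436 and 0.519 without batch 3. Leaving out batch 2 also raised the transcripts that passed over all genes, from 95 of 31429 to 428 of 32456 in limma diffSplice.

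Both of these Srsf10 transcripts share the same ends and differ at a single acceptor site on chromosome 5, where the exon begins at 157977979 or at 157977982 of Rnor_5.0 on the plus strand. Such sites 3 nt apart add or remove a single codon where they lie in coding sequence. Over all Srsf10 transcripts that use either site, the longer exon form held 73.8%, 92.2% and 78.3% in knockdown libraries, against 49.3%, 37.6% and 56.9% in controls. All knockdown values were above all control values. The log2 ratio of longer to shorter form changed by 2.38 (SE 0.88), with an unadjusted p of 0.0527 and an adjusted p of 0.878 in limma over 1174 such sites. Without batch 2 that change was 1.47, with an unadjusted p of 0.172. Srsf10 overlaps Pnrc2 on the other strand over 6611 bp, and reads of both genes cannot be told apart without strand.

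Srsf11, an SR protein also known as p54, had the same kind of site on chromosome 2, with the exon start at 283478681 or 283478678 on the minus strand. The longer form held 82.2%, 64.1% and 64.6% in knockdown and 46.1%, 29.2% and 55.7% in control libraries, again without overlap (log2 ratio change 1.67, SE 0.77, adjusted p = 0.884 in limma). Different transcripts made up that form. Its transcript of 3156 nt held 61.0%, 2.85% and 5.31% of the gene's RPKM in knockdown and 33.7%, 3.11% and 4.06% in control libraries. Its transcript of 2624 nt held 14.5%, 49.2% and 51.7% in knockdown and 5.34%, 12.7% and 44.8% in control libraries. These transcripts also differ in their starts and exon numbers, so the site is not measured alone. The Srsf11 transcript of 2907 nt took 14.4%, 17.3% and 33.4% of the gene's RPKM in knockdown and 50.4%, 62.3% and 41.2% in control libraries, with an adjusted p of 0.0873 in limma diffSplice. Without batch 3 that transcript passed, at 0.0114 in limma, as did 509 of 32385 over all genes, against 95 of 31429 with all batches. Leaving out batch 1 or batch 2 gave that transcript 0.349 and 0.269. Its log2 difference from the gene was -1.99 with all batches and -1.44 without batch 2.

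Of 7 such acceptor pairs tested in 6 member genes, 2 had groups that did not overlap with the longer form higher in the knockdown, against 4.6% of the 1174 pairs in all genes. Those 2 are the Srsf10 and Srsf11 pairs above, built from the same transcript values and examined after these were seen. The count is therefore no separate support. The other 5, in Hnrnpr, Hnrnpul1, Srsf5 and Tra2a, overlapped. Over all genes 0 of 1174 pairs passed in limma, with 63 at an unadjusted p below 0.05. Single libraries set several of the overlapping values. The longer Hnrnpr form was at 98.1% in the knockdown of batch 1 and at 11.7% to 26.9% in the other 5 libraries. The longer Hnrnpul1 form was at 92.8% in the control of batch 1 and at 41.8% to 53.9% in the others.

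**Figure D4:**
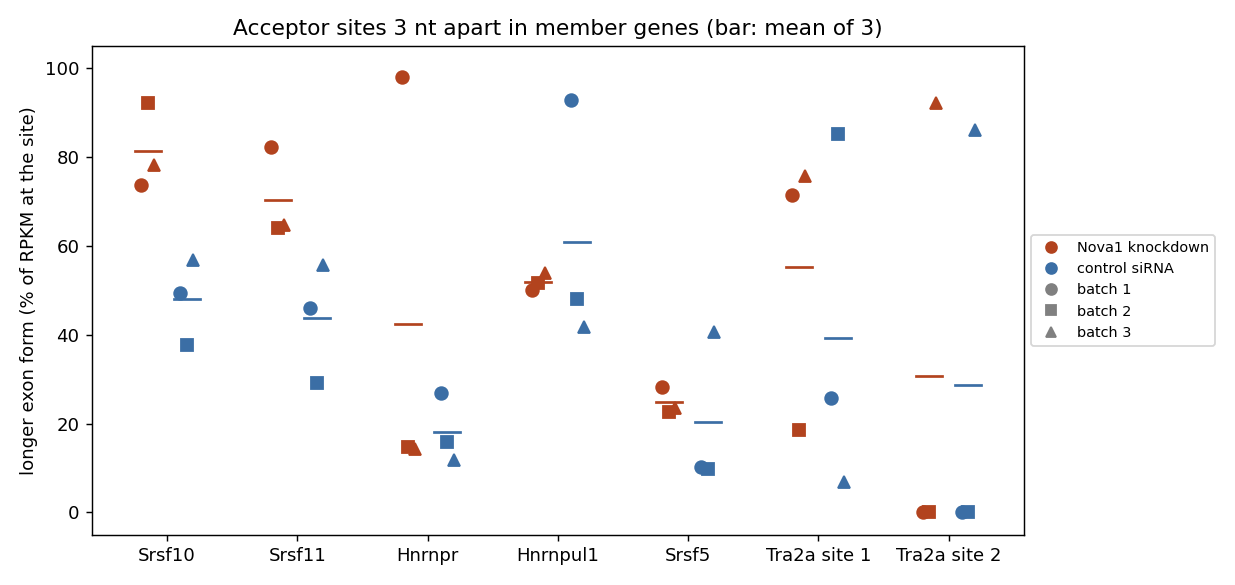
Share of the longer exon form at acceptor sites 3 nt apart, in percent of the RPKM of transcripts that use either site, with knockdown left (red) and control right (blue), symbols for batches and a bar for the mean of 3. Knockdown symbols lie above control symbols at Srsf10 and Srsf11, and the other sites overlap.

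The remaining large share differences were in Hnrnpul1 and Hnrnpr. In Hnrnpul1 a transcript of 4630 nt took 6.49%, 18.9% and 13.6% in knockdown and 91.6%, 22.5% and 0 in control libraries (limma diffSplice adjusted p = 0.414). Its reference transcript of 3731 nt took 44.5%, 39.5% and 36.5% in knockdown and 0.434%, 45.6% and 1.31% in control libraries. The control libraries disagreed among themselves by more than the groups differed. Among 13 cassette exons of members, 0 had groups that did not overlap, against 3.93% higher and 4.6% lower over 5191 exons in all genes. Among 17 introns kept or removed, 1 did, higher in the knockdown, against 3.66% over 1994 introns. In limma 0 of the 5191 exons and 0 of the 1994 introns passed, with 241 and 100 at an unadjusted p below 0.05. The member intron is a 60 nt intron of Hnrnpl (chr1:88184129-88184188 in Rnor_5.0), kept in 24.4%, 23.8% and 26.5% in knockdown and 21.9%, 20.1% and 23.1% in control libraries (limma adjusted p = 0.878).

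Many SR genes were high in batch 2 in both groups alike. In 10 of 13 SR models and 11 of 20 hnRNP models, both libraries of batch 2 lay above the other 4 in RPKM, against 37.8% of all genes. Both lay below the other 4 in 1 SR model and 6 hnRNP models, against 18.9% of all genes. Hnrnpab and Hnrnpc count with both of their loci among these 6, and Hnrnph3 with both of its loci among the 11. Of the related lists, 19 of 23 models of other SR-related proteins, 9 of 12 kinase and import genes, 10 of 15 models of decay factors and 8 of 18 hnRNP relatives were likewise highest in batch 2. These counts rest on RPKM and can differ in CPM, which carries the scaling factors of the fit. In CPM, Hnrnpl, Hnrnpa3 and Hnrnpul1 were not highest in both batch 2 libraries, and Srsf3 was. Srsf5 in batch 2 was at 3.96 times the mean of the other batches in knockdown and 3.65 times in control libraries. Srsf2 was at 71.0 RPKM in knockdown and 65.9 RPKM in control of batch 2, against 15.2 to 21.7 RPKM and 16.2 to 22.1 RPKM in the same groups of the other batches. Srsf7 was at 33.1 RPKM in knockdown and 31.1 RPKM in control of batch 2, against 14.0 to 15.5 RPKM and 14.3 to 15.5 RPKM in the same groups of the other batches. Srsf9 went the other way, at 14.8 RPKM in knockdown and 15.02 RPKM in control of batch 2, against 20.2 to 21.7 RPKM and 20.4 to 21.1 RPKM in the others. Batches were not tested against each other.

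Other measures moved with batch 2 as well. Insulin transcripts took 21.4%, 9.85% and 20.7% of reads in knockdown and 20.0%, 13.2% and 21.7% in control libraries of batches 1, 2 and 3. The 4 alpha cell markers, led by Gcg, summed to 6480, 14200 and 9220 RPKM in knockdown and 4740, 12600 and 7090 RPKM in control libraries. The PP cell marker Ppy was at 643, 1240 and 593 RPKM in knockdown and 566, 1510 and 431 RPKM in control libraries. What part the cell makeup or the insulin share has in the batch 2 levels was not tested, and fewer cells of a type cannot be told apart from less RNA per cell in bulk samples.

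The batch 2 libraries also held more of alternative forms of several SR genes. Srsf3 has a 456 nt cassette exon (chr20:8540846-8541301 in Rnor_5.0), which was included in 5.50%, 36.1% and 9.79% in knockdown and 10%, 36.3% and 22.8% in control libraries. Srsf7 kept a 244 nt intron (chr6:2860533-2860776) in 11.1%, 54.2% and 10.9% in knockdown and 12.8%, 59.8% and 9.70% in control libraries. Srsf2 kept a 1045 nt intron (chr10:105452397-105453441) in 11.6%, 42.9% and 12.6% in knockdown and 12.3%, 44.6% and 7.70% in control libraries, in a transcript that removes a 502 nt intron downstream instead. For each of these forms batch 2 was the highest in both groups, and the forms were picked for that. Another Srsf7 intron, of 138 nt, was lowest in batch 2. It was kept in 83%, 67% and 73.3% in knockdown and 71%, 66.2% and 86.9% in control libraries.

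A transcript of Srsf6 with 3810 nt and 4 exons, which begins inside the span of the reference transcript, took 2.10%, 20.4% and 3.28% of the gene in knockdown and 1.90%, 23.8% and 1.60% in control libraries. A Srsf5 transcript of 2032 nt took 4.75%, 19.4% and 4.42% in knockdown and 5.12%, 28.6% and 1.43% in control libraries. Of the 17 introns of members, 7 were highest in both batch 2 libraries, 6 of them overlapping introns of Srsf7 and 1 of Srsf2, against 17.9% of 1994 introns, and 3 were lowest in both, against 7.17%. Over transcript shares, 11 of 51 SR transcripts and 4 of 44 hnRNP transcripts were highest in both batch 2 libraries, against 11.6% of all transcripts, while 8 and 4 were lowest in both, against 10.2%. Whether these forms carry an early stop codon was not examined.

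**Figure D5:**
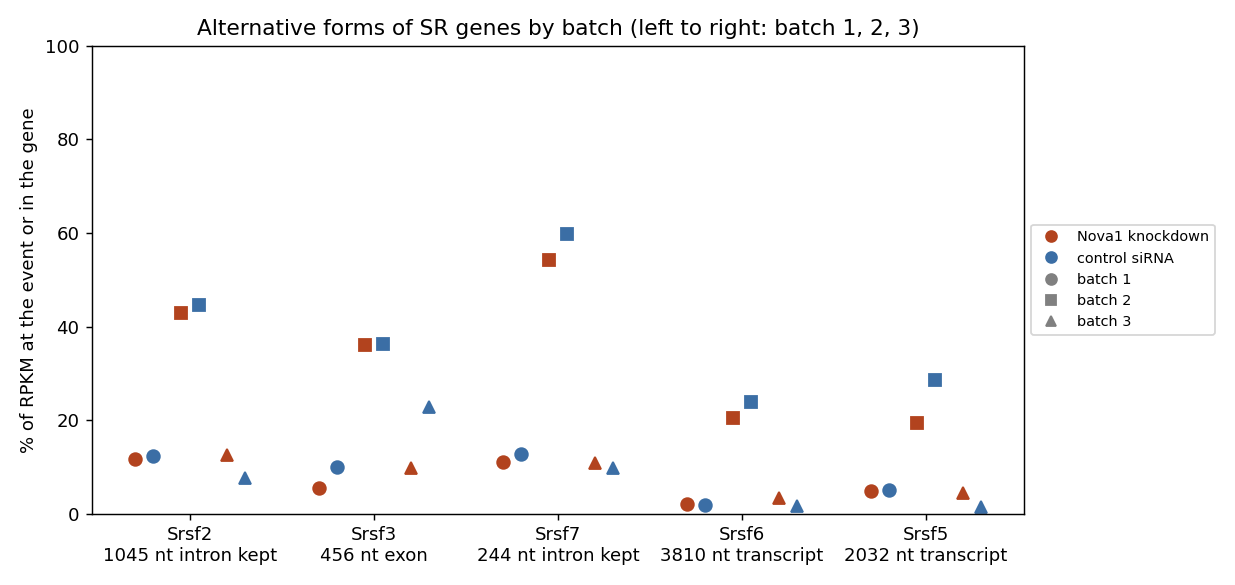
Share of an alternative form of 5 SR genes in percent of RPKM at the event or in the gene, with batches 1, 2 and 3 from left to right and knockdown (red) beside control (blue). The form shown for each gene is the one with the largest gap between the lower batch 2 library and the highest library of the other batches. The separation of batch 2 is thus set by that choice and is no separate support. The batch 2 squares stand between 19.4% and 59.8%, and every other symbol is at or below 22.8%.

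Promoters of the 3 SR genes with the highest ratio of batch 2 to the other batches are shown, chosen by that ratio alone. Whether promoters have a part in the batch levels was not tested. The windows span 250 bases before to 50 after the start of the gene, 5′ to 3′ on the strand of the gene, from RefSeq on GRCr8. Capitals mark the letters of a CCAAT box (CCAAT), TATA box (TATAAA), GC box (GGGCGG), cyclic AMP response element (TGACGTCA) or ETS motif (CCGGAAG), searched on both strands, where a GC box and an ETS motif can overlap.
Srsf5, chr6:106336506-106336805 (+): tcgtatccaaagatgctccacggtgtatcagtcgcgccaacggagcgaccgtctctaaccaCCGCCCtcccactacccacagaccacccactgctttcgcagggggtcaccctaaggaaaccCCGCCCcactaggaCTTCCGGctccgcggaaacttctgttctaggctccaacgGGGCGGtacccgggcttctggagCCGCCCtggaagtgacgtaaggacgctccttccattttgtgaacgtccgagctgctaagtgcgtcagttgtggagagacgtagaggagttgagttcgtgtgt
Srsf2, chr10:102554092-102554391 (-): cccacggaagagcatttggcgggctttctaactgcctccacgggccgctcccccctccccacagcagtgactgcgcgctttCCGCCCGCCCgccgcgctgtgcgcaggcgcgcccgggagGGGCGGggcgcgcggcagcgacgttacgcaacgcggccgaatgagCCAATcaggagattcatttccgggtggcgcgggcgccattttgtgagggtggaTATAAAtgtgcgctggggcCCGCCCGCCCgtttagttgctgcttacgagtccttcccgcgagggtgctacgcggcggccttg
Srsf7, chr6:20563802-20564101 (+): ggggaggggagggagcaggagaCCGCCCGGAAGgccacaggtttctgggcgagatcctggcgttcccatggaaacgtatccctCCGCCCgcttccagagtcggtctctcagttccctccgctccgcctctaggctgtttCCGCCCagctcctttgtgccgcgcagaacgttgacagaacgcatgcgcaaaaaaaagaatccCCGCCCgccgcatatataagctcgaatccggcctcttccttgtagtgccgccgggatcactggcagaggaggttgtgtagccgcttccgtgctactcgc
The Srsf5 and Srsf7 windows each hold 4 GC boxes and 1 ETS match, and the Srsf2 window holds 5 GC boxes, 1 CCAAT box and 1 TATA box. Of 32 member promoters found in RefSeq, 24 hold a GC box, 22 a CCAAT box, 7 an ETS motif, 5 a TATA box and 0 a cyclic AMP response element. Hnrnpf and Srsf10 count with more than 1 window each, and Tra2a has no window. The windows of Hnrnph3 and Hnrnpk and 1 of Srsf10 hold 1, 2 and 0 CpG, against a member median of 28.5. Over 33469 RefSeq promoters of the same length the shares are 33.1%, 37.5%, 8.75%, 14.2% and 1.83% for the same motifs in that order. Member promoters had a median G and C content of 64.3%, against 51.7% over all promoters, and a median ratio of observed to expected CpG of 0.96, against 0.39. A GC-rich window holds GC boxes more often by its composition alone, and a match describes letters only. Srsf7 lies on the plus strand in GRCr8 and on the minus strand in the Rnor_5.0 coordinates of the deposited assembly.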

How the data were processed

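Poly(A) RNA of 6 libraries was sequenced, with 200 bp products excised from a gel and RNA integrity numbers of at least 7.5, per the labels' protocols. Reads were aligned with TopHat to Rnor_5.0, per the submitters' processing notes. For each library the authors deposited estimated reads, length and RPKM per transcript as text attributes in a column of other content, and 18.2% to 18.8% of nonzero reads per library were exactly whole (tolerance 0). How reads were divided among transcripts, and whether strand was used, was not stated.

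Reads and RPKM were summed per gene name and locus. A gene was kept where 3 or more libraries had at least 10 reads, adjusted to the depth of the median library, and all libraries together had at least 15, as was true of 15983 genes. Scaling factors came from an own implementation of the trimmed mean of M values (trims of 30% on M and 5% on A), and the data were fitted with voom in limma 3.58.1 (R 4.3.3), with batch as a block and 2 residual degrees of freedom. Adjustment over all genes followed Benjamini and Hochberg, and calls needed an adjusted p below 0.05. The design placed a count model first and limma where reads are held only as attribute text, which applied here. Transcript shares were tested with diffSplice over 31429 transcripts. Acceptor pairs 3 nt apart, cassette exons and retained introns were tested with limma on the log2 ratio of both forms, with 0.1 RPKM added to each and at least 1 RPKM in both groups, an analysis added after seeing the data. The gene-level fit was tested on simulated data.

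Batch numbers come from the titles and pair the libraries. Deviations from group means correlated within batches at 0.58, 0.87 and 0.78. All members are accounted for, and values are given for called members, the 3 highest and 3 lowest log2 fold changes, the 4 most abundant genes of each group, a fixed set of reference members and the 6 largest share changes, and for up to 4 called genes of each of the 4 related gene lists or else the 2 with the smallest p. A gene that this rule takes is not reported here. Other genes and forms named, such as those high in batch 2, were chosen after their values were seen. The members and lists were chosen with earlier results of these data known. Alternatives were no block, each batch left out, other scalings and filters, limma-trend on log2(RPKM + 1), + 0.1 or + 0.01, a correction for transcript length and summing by gene name. Coordinates are those of Rnor_5.0 unless GRCr8 is named. Promoters were matched by symbol, and RefSeq tables were used for sequences and names.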

Additional observations from a re-analysis of the deposited data

How the results depend on the processing

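The batch block was decisive for the gene-level calls, since without the replicate block 0 members were called, against 1 with it, and 0 of 15983 genes (521 at an unadjusted p below 0.05). The member count was also 0 with limma-trend on log2(RPKM + 1), + 0.1 and + 0.01, and 0 to 1 when a batch was left out. It was 1 with median of ratios scaling, library totals, no filter, a stricter filter, the length correction and summing by name. Over all genes, 274 calls compared with 91 under library totals, 171 without the filter, 119 with the stricter filter, 588 with the length correction, and 4, 0 and 75 without batches 1, 2 and 3. Syncrip had a negative log2 fold change in every fit run, from -3.99 to -1.01. Members above 0 numbered 26 of 33 with library totals, 25 with limma-trend and 23 with the length correction, against 16 as reported and 16 with median of ratios scaling. The median log2 fold change over members was 0.05 with library totals, against 0.06 over all genes. It was 0.04 with limma-trend, against 0.02 to 0.05, and 0.04 with the length correction, against 0.01. The share of all genes above 0 was not counted in these alternatives. In at least 1 alternative fit, 12 members changed sign. The number of member genes with a changed transcript share was 0 in the fits with all batches, with or without the block, and 1 to 2 when a batch was left out. Counted by transcript, 3 of 97, 2 of 95 and 3 of 99 member transcripts passed without batches 1, 2 and 3. Over all genes 486 of 32334, 428 of 32456 and 509 of 32385 transcripts passed in these fits, against 95 of 31429 with all batches. Beyond Srsf10 and Srsf11, those calls were in Srsf5 without batch 3 (0.0428 in limma) and in Srsf7 and Hnrnpa2b1 without batch 1. The Srsf10 share difference of -27.4 points in RPKM was -25.2 points in reads. At the acceptor sites the unadjusted p for Srsf10 was 0.0218 without the block (adjusted p = 0.853 in limma). The causes were not tested. Low reads limit Syncrip, at 31 in a knockdown library, and division of reads among transcripts limits every share.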
